A study of Mus musculus with 9 samples.

Results

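Replicate cultures differentiated to the same nominal time were compared to find which gene programmes vary between them. All 3 libraries with replicate number 3 were set against all 3 with replicate number 2, which makes 6 of the 9 libraries of the study. Libraries with the same replicate number are called a series here, which is a name and not a label, since the labels give a number and call the replicates independent biological ones without saying what the number stands for. Each series held 1 library of WT cells, 1 of CdxKO cells (Cdx1/2/4-/-) and 1 of T/BraKO cells (T/Bra-/-). All were mouse embryonic stem cells differentiated for 72 h, to day 3, into caudal epiblast-like cells (CEpiLCs), a culture counterpart of the posterior progenitors from which spinal cord and trunk mesoderm arise. All groups, WT included, received bFGF at 10 ng per ml, the Porcupine inhibitor LGK974 at 5 uM, which blocks WNT secretion, and, in the last part of the culture, the GSK3 inhibitor CHIR99021, which activates WNT signalling inside the cell (the labels give its concentration in another unit than the study's methods, so none is stated). The WT control was the HM1 TetON line, an engineered male line, and the mutant lines derived from it, with no second line of a genotype named in the labels. The stem cells were kept on feeder fibroblasts, which were removed by plating before differentiation.

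FGF binds receptor tyrosine kinases and activates ERK, which induces ETV transcription factors and immediate early genes of the EGR and FOS families, as well as the Sprouty and dual-specificity phosphatase proteins that dampen the pathway. Cell tension and actin assembly act through serum response factor, which binds a sequence called the CArG box, and through YAP, which works with TEAD factors. In the embryo, naive pluripotency genes are lost before implantation, the primed epiblast expresses a different set, and FGF, WNT and Nodal signals then start the primitive streak, where Hox genes are activated in order along their clusters.

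Of 24736 genes, 14344 received an adjusted p, and 2703 of these (18.8%) were higher and 2437 (17.0%) lower in series 3 than in series 2 (DESeq2 with genotype as a block, adjusted p of at most 0.05). Among called genes, 2686 of the higher and 2434 of the lower had the same direction in WT, CdxKO and T/BraKO. The calls come from these same libraries and favour genes with 1 direction, so these counts are a description. Most shifts were small. The median absolute log2 fold change was 0.428 over called genes, with 269 higher and 335 lower genes beyond 2-fold, and the median over all tested genes was -0.002. Among the 12408 genes whose normalised counts averaged 50 or more, series accounted for a median of 56.9% of the sum of squares of log2 values, genotype for 25.4% and the remainder for 8.61%. The series mean square was above the genotype mean square for 9191 of them (74.1%). Across the same genes, which are not independent of each other, the log2 ratio of series 3 to series 2 correlated at r = 0.819 between WT and CdxKO, 0.781 between WT and T/BraKO and 0.743 between CdxKO and T/BraKO, pairs that share no library. Totals were 30813836 to 34705361 expected counts a library.

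A series holds 1 library of each genotype, so each p measures a difference against its spread between the 3 genotypes and not whether it would recur in another differentiation. Leaving out any of the 6 libraries leaves 2 genotypes to inform the contrast, and the counts then fell to between 1038 and 1582 higher and between 859 and 1255 lower genes. Beside the counts of each gene list below stand the lowest and highest counts of these 6 fits. Each list count is to be read against the 18.8% of all tested genes that were higher and the 17.0% that were lower. In RNA from whole cultures, fewer cells of a type and less RNA per cell cannot be told apart. Normalised counts are expected counts divided by DESeq2 size factors and are not scaled for gene length, so they compare libraries and not genes.

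The targeted genes and the markers of the caudal epiblast were read first. T, the mesoderm factor that marks these progenitors, stood at 11927, 6783 and 2391 normalised counts in WT, CdxKO and T/BraKO of series 2 and at 15942, 21383 and 3125 in series 3. The rise in CdxKO, 1.66 on the log2 scale, was larger than those of WT, 0.42, and of T/BraKO, 0.39, and T was not called (log2 fold change 0.81 ± 0.40 SE, adjusted p = 0.103). Without either CdxKO library its log2 fold change was 0.40 and it was called, with adjusted p = 6.56e-04 and 6.99e-04, and edgeR called it at 0.83 (adjusted p = 0.022). Transcripts of T were lowest in T/BraKO within each series. Cdx2 had 2908, 762 and 3945 counts in series 2 and 4097, 822 and 5256 in series 3, lowest in CdxKO in each, and its log2 fold change was 0.35 ± 0.09 (adjusted p = 6.75e-04), a call lost without either WT or either T/BraKO library. For Cdx1 the log2 fold change was -0.43 ± 0.14 (adjusted p = 0.0099), and it lost its call in all 6 fits that left out a library, with values of -0.55 to -0.30. Cdx4 was at 1.93 and 2.03 counts in the CdxKO libraries and at 64.6 to 198 elsewhere, and was not called (0.84 ± 0.38, adjusted p = 0.0682), while it was with all 9 libraries (adjusted p = 0.0145) and in edgeR (adjusted p = 0.0124), both at 0.85. The caudal factor Nkx1-2 was present at 5291 to 11754 counts in every library.

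Targets and inhibitors of FGF-ERK signalling were higher in series 3 in all 3 genotypes. Of the 20 tested members of this list, 13 (65.0%) were higher and 2 (10.0%) lower, against 18.8% and 17.0% of all tested genes, with a median log2 fold change of 0.74 (10 to 13 higher and 0 to 1 lower with 1 library left out). Spry4, a Sprouty inhibitor of receptor tyrosine kinase signalling, had 401, 342 and 687 normalised counts in WT, CdxKO and T/BraKO of series 2 and 2699, 2620 and 3203 in series 3. No library of series 3 came near the range of series 2, and Spry4 was 6.18-fold higher (log2 fold change 2.63 ± 0.13, adjusted p = 1.24e-89). Etv4 encodes an ETS factor that ERK induces. Its counts were 1087, 1315 and 1853 in series 2 and 4211, 4433 and 5759 in series 3 (1.78 ± 0.09, adjusted p = 7.74e-93). Its relative Etv5 was higher by 1.42 ± 0.10 (adjusted p = 1.40e-42) and Etv1 by 1.24 ± 0.16 (adjusted p = 1.26e-13). Sprouty and phosphatase genes followed the same pattern, with Spry2 at 1047 to 1739 counts in series 2 and 3139 to 3732 in series 3. Dusp4 went from 2552 to 3846 in series 2 to 5483 to 8428 in series 3, and Dusp6, an ERK phosphatase, from 2281 to 3114 up to 6019 to 8659. Their log2 fold changes were 1.35, 1.08 and 1.37. The receptors did not share this direction. Fgfr1 was at -0.07 on the log2 scale (adjusted p = 0.502), and Fgfr3 was lower (-1.29, adjusted p = 0.00221), a call lost without either CdxKO library. Spry1, another Sprouty gene, had 450 to 526 counts in series 2 and 475 to 518 in series 3 (0.07, adjusted p = 0.758).

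Immediate early genes moved in both directions. Of 26 tested, 11 (42.3%) were higher and 6 (23.1%) lower, and the median was -0.07 (9 to 10 higher and 4 to 5 lower with 1 library left out). The EGR genes, zinc-finger factors downstream of ERK, were all higher. Egr3 had 252, 292 and 581 normalised counts in series 2 and 1667, 1724 and 1623 in series 3 (2.26 ± 0.38, adjusted p = 4.92e-08), and Egr4 was higher by 2.49 ± 0.44 (adjusted p = 2.92e-07). Egr2 was higher by 1.45, Egr1 by 1.01 and Fos by 1.05 on the log2 scale, each with no overlap between the series. The same held for 2408 of all 2703 higher genes. Myc, a growth regulator, stood at 213, 303 and 661 in series 2 and at 959, 1248 and 1678 in series 3 (1.84 ± 0.16, adjusted p = 1.14e-28). Fosl1, a FOS relative in the FGF-ERK list too, was higher by 1.63, a call lost without WT replicate 2, WT replicate 3 or CdxKO replicate 3 (1.24, 1.25 and 1.44). Fosl2, another FOS relative, was lower (-0.46, adjusted p = 0.00265), a call lost without CdxKO replicate 2 or either T/BraKO library. Jun, the partner of Fos, was lower too, with 2176 to 2602 counts in series 2 and 1412 to 1865 in series 3 (-0.54, adjusted p = 9.84e-06). Junb and Dusp1 were not called, at -0.02 (adjusted p = 0.982) and -0.30 (adjusted p = 0.521), and their log2 ratios in T/BraKO were -0.82 and -0.94. The most strongly lower member was Cyr61, a secreted matrix protein that is a target of YAP as well.

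**Figure D1:**
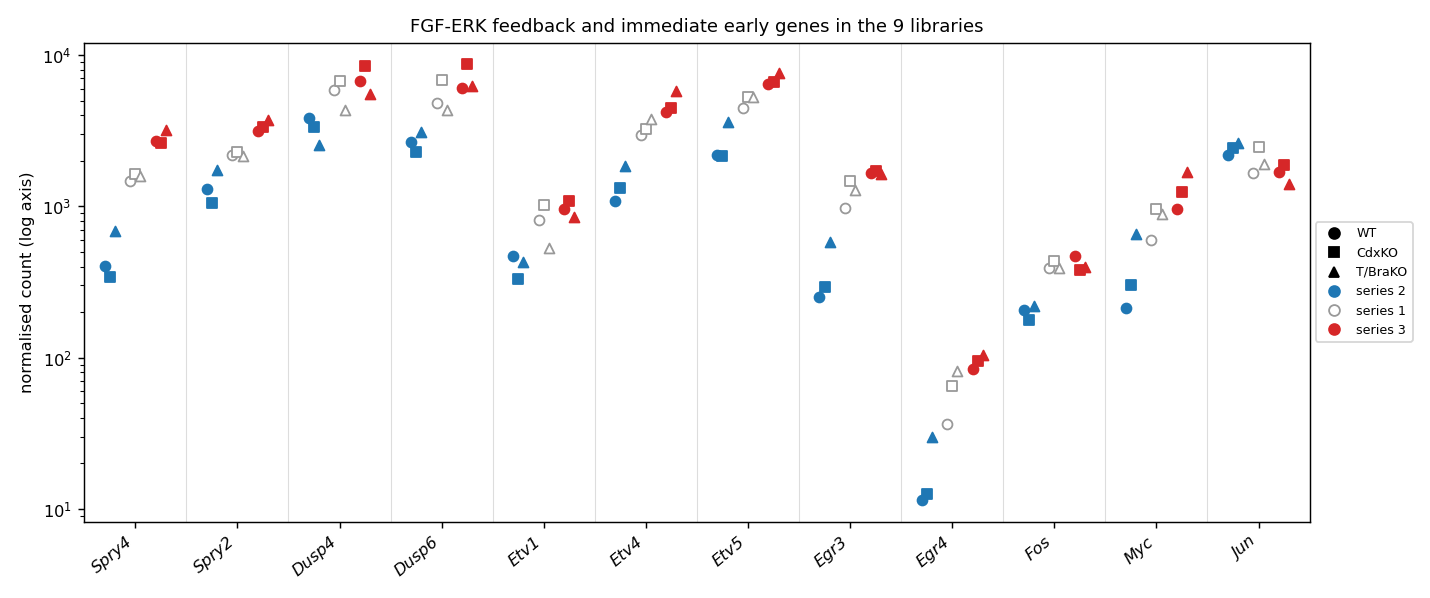
Normalised counts (log axis) of 12 FGF-ERK feedback and immediate early genes, with 1 point per library, colour for series and shape for genotype. For all genes but Jun the series 3 points lie above the series 2 points, for Spry4 at 2620 to 3203 against 342 to 687, and Jun runs the other way.

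Genes of the contractile apparatus were lower in series 3. This list, like those of YAP targets and keratins below, was drawn up after these values were seen, so its counts are a description: 21 of 29 tested members (72.4%) were lower and 1 (3.45%) higher, with a median of -0.58 (16 to 18 lower and 1 higher with 1 library left out). Acta1, skeletal alpha-actin on chromosome 8 from 123891769 to 123894751 in GRCm38, fell from 1088, 1393 and 1618 normalised counts in series 2 to 111, 160 and 126 in series 3. It was 10.3-fold lower (-3.36 ± 0.15, adjusted p = 3.08e-108), although its expected counts were fractional in 6 of 6 libraries, which happens where reads also match another gene. The cardiac actin Actc1 had 1599, 2099 and 2987 counts in series 2 and 461, 511 and 815 in series 3 (-1.90 ± 0.10, adjusted p = 8.64e-78). Tagln, a smooth muscle actin-binding protein, stood at 6336, 9724 and 10518 against 1403, 3225 and 1130 (-2.32 ± 0.46, adjusted p = 3.93e-06). The 3 libraries of each series lay apart for all of these, as for 2111 of all 2437 lower genes. Lmod1, a nucleator of actin filaments in muscle, was at -2.06, and smooth muscle actin Acta2 had a log2 fold change of -1.66, calponin Cnn1 of -1.21, the myosin light chain Myl9 of -1.35 and tropomyosin Tpm1 of -1.24. Myh9, the non-muscle myosin heavy chain, had 22691 to 28589 counts in series 2 and 12721 to 15188 in series 3. The cytoplasmic actin Actb differed little, at -0.10 (adjusted p = 0.229). Zyx, a focal adhesion protein, was the 1 member that was higher (0.63 ± 0.08, adjusted p = 2.86e-12). Srf, the factor itself, was at -0.12 on the log2 scale (adjusted p = 0.358).

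The 250 bases before each RefSeq start site (GRCm38.p6) were searched for the CArG box on both strands, which the palindromic pattern covers at once. Of 25 members of the contractile list with a promoter in the table, 9 (36.0%) held one, against 439 of 27025 genes (1.62%), and against 159 of the 11102 tested genes that matched (1.43%). The 9 were Acta1, Actc1, Actg1, Cnn2, Myl6, Myl7, Myl9, Vcl and Srf. Of these, Srf and Myl7 (-1.32, adjusted p = 0.0584) were not called as different between the series. Myl7 was called lower with all 9 libraries (-1.29, adjusted p = 0.031), without the genotype block (-1.27, adjusted p = 0.027) and in edgeR (-1.27, adjusted p = 0.0231). Tagln, Acta2, Cnn1, Tpm1 and Lmod1, which were lower in series 3, were not among the 9. Only exact matches to CC, a run of A or T bases and GG were counted, within the 250 bases. A box with a changed base or further from the start site would be missed, so genes without a match cannot be said to lack one. The list was chosen after its values were seen and holds contractile genes and Srf itself. This share so describes the list and not the difference between the series, and a match of letters is not a site in use. Whether the box goes with the shift was not tested. In the other lists the box was in 2 of 18 matched immediate early genes, 1 of 13 FGF-ERK genes and 0 of 9 YAP targets. Stretches of 130 bases are shown for the 2 sarcomeric actins and Myl9, read 5' to 3' on the gene's strand with the CArG box in capitals. They run over chr8:123894776-123894905 (minus strand) for Acta1, chr2:114052876-114053005 (minus strand) for Actc1 and chr2:156775283-156775412 (plus strand) for Myl9, and the box starts 73, 47 and 161 bases before the start site.
Acta1 promoter: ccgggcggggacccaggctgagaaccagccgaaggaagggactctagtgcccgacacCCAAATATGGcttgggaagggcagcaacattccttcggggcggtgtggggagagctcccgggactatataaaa
Actc1 promoter: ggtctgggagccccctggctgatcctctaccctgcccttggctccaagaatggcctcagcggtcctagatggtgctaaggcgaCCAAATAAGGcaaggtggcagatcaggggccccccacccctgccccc
Myl9 promoter: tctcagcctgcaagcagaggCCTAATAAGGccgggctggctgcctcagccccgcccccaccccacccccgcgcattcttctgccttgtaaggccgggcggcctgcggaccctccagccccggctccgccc

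In the list of YAP targets 10 of 14 tested members (71.4%) were lower and none higher. The median was -0.82 (7 to 10 lower with 1 library left out). This list also holds Yap1, Wwtr1, Tead1 and Tead4, factors of the pathway itself, of which Wwtr1 and Tead1 are among the lower members. Cyr61 had 9997, 13264 and 14685 normalised counts in series 2 and 3098, 5823 and 2309 in series 3 (-1.85 ± 0.42, adjusted p = 8.49e-05). Lats2, a kinase that restrains YAP, stood at 587, 675 and 780 against 286, 352 and 252 (-1.20 ± 0.17, adjusted p = 3.74e-11). Amotl2 was at -0.97, the receptor Axl at -1.06, Tead1 at -0.56 and Wwtr1, which encodes the YAP relative TAZ, at -0.59, all called. Yap1 itself was at 0.14 (adjusted p = 0.0674), and was called with all 9 libraries (adjusted p = 0.0265) and in edgeR (adjusted p = 0.0454). Ankrd1 was at -1.85, a call lost without T/BraKO replicate 2 or replicate 3 (both -1.28, adjusted p = 0.0892 and 0.0518). Ctgf was at -1.06, a call lost without WT replicate 2 or replicate 3 (both -1.15, adjusted p = 0.28 and 0.278). Simple epithelial keratins, which form the filaments of early epithelia, were lower in 3 of 4 tested members. Krt19 had 4149, 5468 and 2096 counts in series 2 and 976, 2017 and 298 in series 3 (-2.11 ± 0.38, adjusted p = 5.82e-07). Krt8 and Krt18, which pair with each other, were at -1.22 and -1.21. Neither was called without a WT library, where the highest adjusted p was 0.128 for Krt8 and 0.114 for Krt18, nor was Krt8 without CdxKO replicate 2 (adjusted p = 0.0528).

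**Figure D2:**
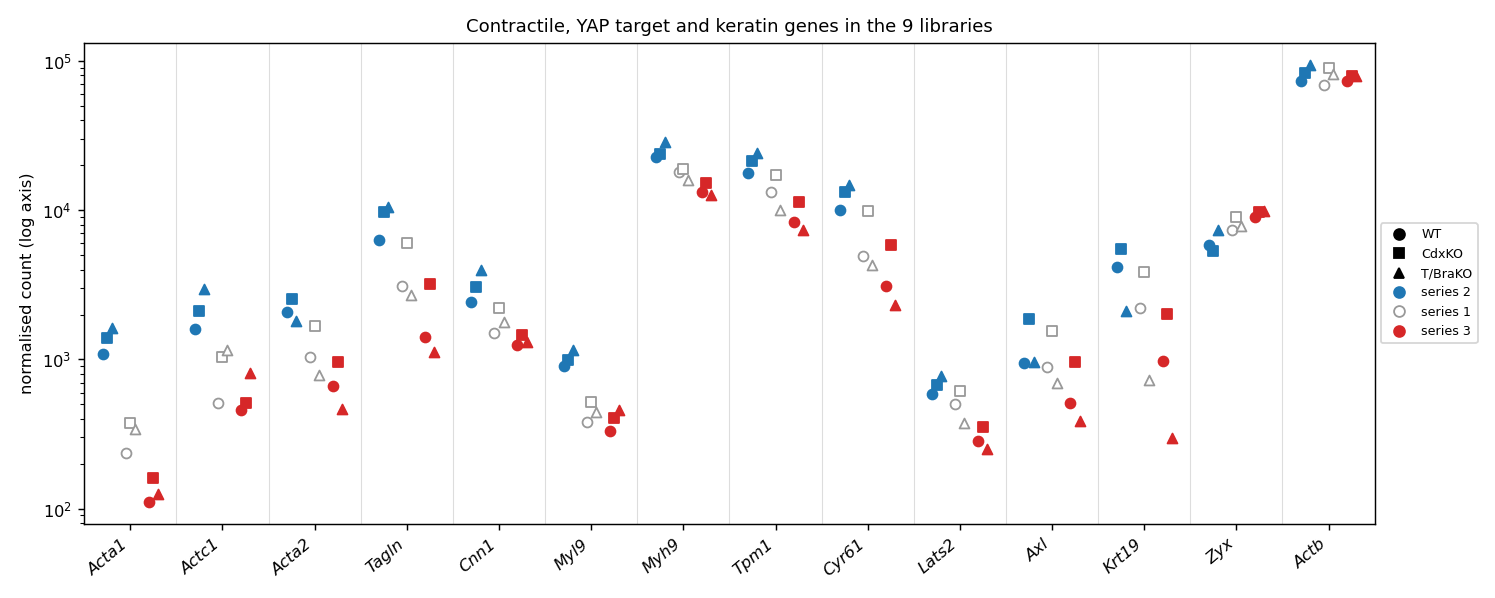
Normalised counts (log axis) of 14 contractile, YAP target and keratin genes, with 1 point per library, colour for series and shape for genotype. Series 3 lies below series 2 from Acta1, at 111 to 160 against 1088 to 1618, to Krt19, with a shared range for Axl, while Zyx is higher in series 3 and the Actb points overlap.

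Acta2 and Tagln are also markers of fibroblasts, on which the stem cells grew as feeders. The feeder fibroblast list had 10 of 17 tested members lower (58.8%) and none higher, with a median of -0.60 (6 to 8 lower with 1 library left out), and no member was at or under 3 counts in all 6 libraries. Summed over its 20 members the level was 17454 to 25167 normalised counts in series 2 and 6765 to 12519 in series 3. Much of this sum came from Tagln and Acta2, which are in the contractile list too. Tagln had 6336 to 10518 counts in series 2 and 1130 to 3225 in series 3, and Acta2 1796 to 2523 and 467 to 954. Type I collagen Col1a1 had 1651, 3186 and 653 counts in series 2 and 677, 1487 and 382 in series 3 (-1.06 ± 0.11, adjusted p = 1.97e-18), and Col1a2 had a log2 fold change of -0.95. Type III collagen Col3a1 was at 128 to 151 counts in series 2 and 153 to 189 in series 3 (0.29, adjusted p = 0.345). The fibroblast proteoglycans Dcn and Lum had 27.0 to 83.1 and 3.13 to 5.78 counts in series 2, and 15.1 to 32.9 and 7.11 to 9.06 in series 3. Postn was at 54.2, 163 and 5.94 against 16.1, 31.5 and 4.84 (-1.72, adjusted p = 0.0054) and was not called without WT replicate 2, WT replicate 3 or CdxKO replicate 3. The part of fibroblasts in the contractile and collagen differences was not tested.

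Markers of other cell types gave no common direction. Of the trophoblast markers, 2 of 11 tested were higher and 3 lower (median -0.52), with sums of 15735 to 19574 normalised counts in series 2 and 10789 to 12613 in series 3. Prl3d1 and Tpbpa, made by trophoblast giant cells and spongiotrophoblast, were at 0 in all 6 libraries. The 3 lower ones, Krt8, Krt18 and Tfap2a (-1.22, called in none of the 5 fits without a library that gave it an adjusted p), are also genes of simple epithelia, and the higher ones, Eomes and Cdx2, are genes of the streak and caudal epiblast. Without WT replicate 2 or WT replicate 3 this list had 1 higher and 0 lower, and without CdxKO replicate 2 it had 2 higher and 1 lower. Visceral and primitive endoderm markers had 1 higher and 3 lower of 13 (median -0.04, and 0 higher with 1 to 2 lower with 1 library left out), summing to 15394 to 21977 normalised counts in series 2 and 12990 to 16354 in series 3. The called ones were Lama1 (0.36), Dab2 (-0.54), Sparc (-0.43) and Col4a1 (-0.19), of which Sparc was called in every fit, Dab2 only without a T/BraKO library and the others in none. Ttr, a product of visceral endoderm, was at 0 to 1.04 counts. Blood and endothelium markers had 3 higher of 10, Lmo2, Cd34 and Kdr (median 0.46, and 1 to 4 higher with 1 library left out), of which Kdr lost its call without either WT or either CdxKO library and Cd34 without either WT library or CdxKO replicate 3. They summed to 1626 to 2211 in series 2 and 2064 to 3578 in series 3. The embryonic globin Hbb-bh1 was at 0 to 4.84 counts. None of 6 tested germ cell and 2-cell-like markers was called by DESeq2 (median -0.16), where 1 was lower at an unadjusted p under 0.05 and edgeR called 2 lower. On that list 8 of the 15 members were at or under 3 counts in all 6 libraries.

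Genes of naive pluripotency were lower in series 3 and genes of the primed epiblast higher. Of 18 tested naive genes 9 were lower and none higher, with a median of -0.48 (6 to 8 lower and 0 to 1 higher with 1 library left out). Tfcp2l1, a factor of the naive network, had 1442, 1669 and 1661 normalised counts in series 2 and 597, 657 and 691 in series 3 (-1.29 ± 0.10, adjusted p = 3.57e-35). Esrrb, an orphan nuclear receptor of the same network, stood at 387, 411 and 349 against 155, 223 and 155 (-1.12 ± 0.19, adjusted p = 4.53e-08). Nanog (-0.58), Stat3 (-0.61), Tet2 (-0.91) and Dppa5a (-0.88) were lower too, with no overlap between series, and so was Fbxo15 (-1.04), which without WT replicate 2 had the same value with adjusted p = 0.0532. Klf4 and Klf2, further naive factors, were not called, at -0.02 (adjusted p = 0.965) and 0.62 (adjusted p = 0.0744). In the primed list 16 of 21 (76.2%) were higher and 1 lower, with a median of 0.79 (10 to 14 higher and 0 to 1 lower with 1 library left out). Otx2, a homeobox factor of the epiblast and anterior embryo, had 137, 77.1 and 180 counts in series 2 and 458, 491 and 458 in series 3 (1.90 ± 0.24, adjusted p = 7.87e-14). Utf1 stood at 426, 421 and 497 against 1256, 1621 and 1451 (1.68 ± 0.12, adjusted p = 4.81e-40). The de novo methyltransferase Dnmt3b was higher by 0.92 and L1td1 by 1.48. Fgf5, an epiblast ligand, had 165, 72.3 and 443 counts in series 2 and 899, 926 and 1203 in series 3 (2.51 ± 0.60, adjusted p = 2.08e-04), and without WT replicate 2 its adjusted p was 0.0506. Foxd3 was at 1.93 to 2.97 counts in series 2 and 12.1 to 31.0 in series 3, at least 7.61-fold higher against a floor of 3 counts per library, with no adjusted p in any fit without a library. Pou5f1, expressed in naive and primed cells alike, was higher by 0.40. Etv4 and Dusp6 are members here as well as of the FGF-ERK list.

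Primitive streak and endoderm genes were higher, 11 of 18 tested (61.1%) with 1 lower and a median of 1.10 (6 to 9 higher and 0 to 1 lower with 1 library left out). Mixl1, a streak homeobox gene, had 240, 139 and 189 normalised counts in series 2 and 839, 984 and 461 in series 3 (1.97 ± 0.43, adjusted p = 4.94e-05). Eomes stood at 178, 142 and 552 against 562, 551 and 1170 (1.55 ± 0.18, adjusted p = 2.57e-16), so T/BraKO of series 2 overlapped with series 3, while the level was higher within each genotype. Lhx1, a factor of the anterior streak, was at 70.9, 14.5 and 28.7 against 254, 307 and 152 (2.83 ± 0.70, adjusted p = 3.63e-04). Cer1, a secreted antagonist of Nodal, WNT and BMP, had 1.93 to 8.90 counts in series 2 and 45.5 to 71.5 in series 3 (3.38 ± 0.65, adjusted p = 2.40e-06). Gsc, Foxa2 and the BMP antagonist Chrd were higher by 1.80, 1.54 and 1.20, of which Gsc lost its call without either WT library or CdxKO replicate 2, and Foxa2 without CdxKO replicate 2. Nog, another BMP antagonist, was the lower member (-1.03, adjusted p = 0.0014), and lost its call without either WT library or T/BraKO replicate 2. In the Nodal list 5 of 18 were higher and 3 lower (median -0.07, and 2 to 4 higher and 0 to 1 lower with 1 library left out). Its higher members included the ligand Nodal (0.94, not called without either WT library), its coreceptor Tdgf1 (1.36, with 201 to 433 counts against 641 to 797) and its inhibitor Lefty1 (1.06), whose counts were fractional in 6 of 6 libraries. The lower ones included Ltbp3 and Furin, and each of these lost its call in 4 of the 6 fits, those without a WT library among them.

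Genes of the caudal epiblast were higher in part. In this list 8 of 18 tested (44.4%) were higher and 1, Cdx1, lower, with a median of 0.44 (5 to 8 higher and 0 lower with 1 library left out). Wnt5a, a non-canonical WNT ligand of the tail bud, had 480, 271 and 608 normalised counts in series 2 and 1500, 804 and 2669 in series 3 (1.79 ± 0.13, adjusted p = 7.92e-40). Evx1, a homeobox gene of the posterior streak, stood at 290, 284 and 673 against 985, 792 and 1483 (1.45 ± 0.14, adjusted p = 4.35e-22). Cyp26a1 degrades retinoic acid at the tail end. It was at 7.29 to 11.9 counts in series 2 and 54.4 to 102 in series 3 (3.00 ± 0.48, adjusted p = 8.20e-09). Wnt5b was higher by 0.67, a call lost without either CdxKO library (0.40) or either T/BraKO library (0.75). Sp8 was higher by 0.66, Nkx1-2 by 0.40 and Fgf8 by 0.43, the last with adjusted p = 0.033 and no call in any fit without a library. Wnt3a, Wnt8a and Gbx2 were not called. The ratio in CdxKO ran apart from the rest for Wnt3a, at 1.18 against -0.23 for WT and 0.44 for T/BraKO, and for Gbx2, at -0.46 against 0.50 and 0.60. These ratios rest on 1 library a side, and their difference between genotypes was not tested. Without either CdxKO library Gbx2 was called at 0.55 (adjusted p = 1.06e-05 and 5.60e-06), and without WT replicate 2 or 3 Wnt3a was called at 0.80 and 0.81 (adjusted p = 0.0374 and 0.0292).

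WNT feedback genes had no common direction. Of 21 tested, 7 were higher and 6 lower (median 0.19, and 2 higher with 3 lower without WT replicate 2 or WT replicate 3). Axin2, the usual reporter gene of this pathway, had 6346, 6683 and 6864 normalised counts in series 2 and 6823, 5776 and 7669 in series 3 (0.02 ± 0.08, adjusted p = 0.893). Sp5 and Tcf7, further targets, were at -0.18 (adjusted p = 0.107) and 0.04 (adjusted p = 0.656). Lef1, a transcription factor of the pathway, was higher by 0.74 ± 0.07 (adjusted p = 1.73e-26). The lower members included 3 negative regulators, namely Nkd1 (-0.70, adjusted p = 6.62e-12), the deacylase Notum (-0.72, adjusted p = 1.22e-07) and the receptor ubiquitin ligase Rnf43, with 325 to 422 counts against 151 to 223 (-1.02, adjusted p = 3.10e-07). The antagonist Dkk1 went the other way, from 8.34, 18.3 and 38.6 to 65.5, 47.7 and 123 (1.94, adjusted p = 2.01e-04), and lost its call without either WT library. Its relative Dkk4 was at 1.82 (adjusted p = 0.0474, with none given in any fit without a library), and Lgr5, an R-spondin receptor, at 1.19, called only without T/BraKO replicate 2.

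**Figure D3:**
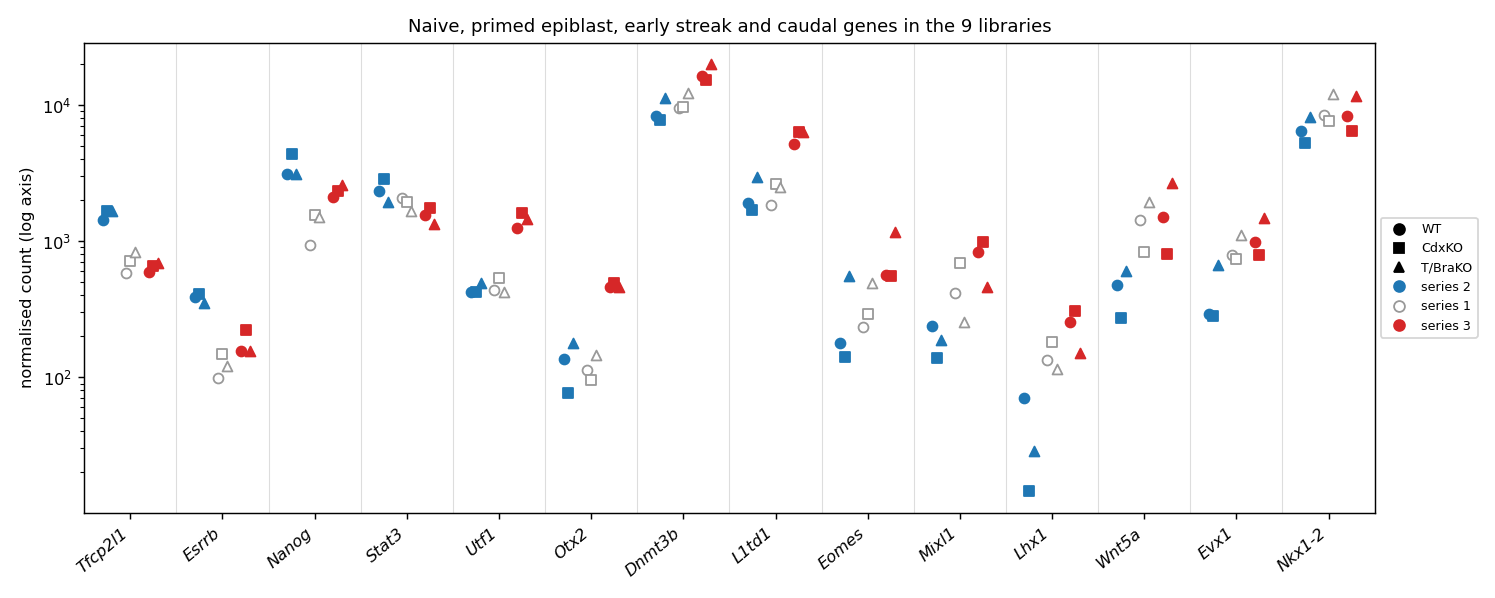
Normalised counts (log axis) of 14 naive, primed epiblast, early streak and caudal genes, with 1 point per library, colour for series and shape for genotype. Tfcp2l1 to Stat3 lie lower in series 3, Utf1 to Evx1 higher within each genotype, with Otx2 at 458 to 491 against 77.1 to 180, and series 1 lies near series 2 for Otx2 and Utf1 and near series 3 for Tfcp2l1.

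Trunk Hox genes were at higher levels in WT and T/BraKO of series 3 and low in CdxKO of either series. Summed over the list they stood at 511, 61.7 and 1194 normalised counts in WT, CdxKO and T/BraKO of series 2 and at 3137, 32.5 and 4745 in series 3. Of 9 tested, 6 (66.7%) were higher and none lower, with a median of 2.01, yet 0 to 6 were called when 1 library was left out (0 without T/BraKO replicate 2), and the median ratio was 2.84 for WT, 0.00 for CdxKO and 1.61 for T/BraKO. Hoxb8 had 146, 2.89 and 314 normalised counts in WT, CdxKO and T/BraKO of series 2 and 731, 3.05 and 958 in series 3 (1.70 ± 0.55, adjusted p = 0.00784), a call lost without either T/BraKO library. Hoxb6 was at 19.8, 0 and 53.4 against 103, 0 and 203 (2.08, adjusted p = 9.29e-05, lost without either WT or either T/BraKO library), and Hoxb5 was at 2.08 (adjusted p = 0.0213), with an adjusted p in 1 of the 6 fits, that without CdxKO replicate 2, where it was not called. Hoxc8 was at 6.25, 0 and 16.8 against 61.4, 0 and 81.3 (2.58, adjusted p = 0.00186), with an adjusted p in 1 of the 6 fits, where it was called. Hoxb9 had 220, 27.9 and 622 against 1914, 13.2 and 3041 and was not called (1.61 ± 1.04, adjusted p = 0.226), but without either CdxKO library its log2 fold change was 2.70 with adjusted p = 3.29e-09 and 1.73e-09, and edgeR called it at 2.45 (adjusted p = 0.002). Among anterior Hox genes, which are activated earlier, 3 of 9 tested were higher and none lower (median 0.75, and 1 to 4 higher with 1 library left out). Hoxb2 was higher in all 3 genotypes, with 250, 366 and 297 counts against 679, 598 and 538 (1.00 ± 0.17, adjusted p = 1.33e-07). Hoxa3 had 84.4, 7.71 and 114 counts against 232, 6.09 and 217 (0.96, adjusted p = 0.0235), a call lost without either WT or either T/BraKO library. Of the axial timing genes, which act in the Lin28 and let-7 axis or on Hox order, 3 of 10 were higher and none lower, with a median of 0.10 (2 higher with 1 library left out). Hmga2 was at 0.41 (adjusted p = 4.99e-06), Sall4 at 0.30 (lost without either WT or either T/BraKO library) and Igf2bp1 at 0.22 (lost without either CdxKO library).

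**Figure D4:**
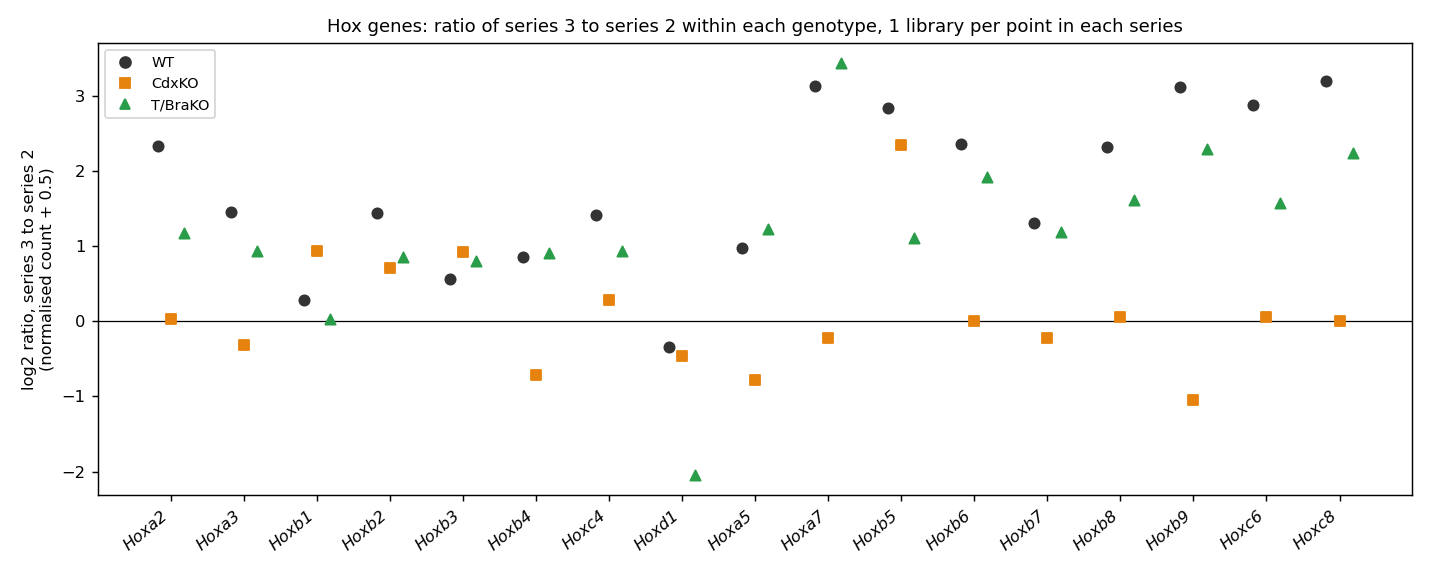
Log2 ratio of series 3 to series 2 within each genotype for tested Hox genes, with 1 point per genotype from 1 library in each series. For Hoxb6, Hoxb7, Hoxb8, Hoxb9, Hoxc6 and Hoxc8 the WT and T/BraKO points lie above 1 and the CdxKO points lie at 0.06 or lower, and no error can be given for a single pair.

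Paraxial mesoderm and Notch genes had 6 higher (33.3%) and 2 lower (11.1%) of 18 tested, against 18.8% and 17.0% of all tested genes. The median was 0.49, with 2 to 4 higher and 0 to 1 lower when 1 library was left out. Hes7, the oscillator of the segmentation clock, had 58.4, 32.8 and 33.6 normalised counts in series 2 and 302, 152 and 165 in series 3 (2.30 ± 0.28, adjusted p = 1.19e-14), and the Notch ligand Dll3 was higher by 0.92. The Notch modifier Lfng, at 0.78, and the mesoderm factor Foxc1, at 0.92, lost their calls without either WT or either CdxKO library. Tbx6, which commits cells to paraxial mesoderm, was not called, at -0.03 (adjusted p = 0.961). Its partner in that step, Msgn1, was at 138, 58.8 and 1.98 against 123, 237 and 4.84 and was not called (0.96, adjusted p = 0.0932), but without either WT library it was, at 1.86 (adjusted p = 0.0424 and 0.0353). In the neural list (median 0.30, and 1 to 2 higher and 0 to 1 lower with 1 library left out) the 1 called gene of 15 was Sox2, with 509, 518 and 393 counts against 1044, 770 and 1109 (1.03 ± 0.16, adjusted p = 6.32e-09), which is a gene of pluripotent cells too. In all 9 libraries together this list had 1 higher and 2 lower. Sox3 had 663, 970 and 636 against 1130, 879 and 1279 and was not called (0.55, adjusted p = 0.21), and without either CdxKO library it was (0.89, adjusted p = 1.34e-05 and 9.73e-06). Lateral and extraembryonic mesoderm genes had 2 higher and 5 lower of 18 (median -0.16), but 1 and 0 without WT replicate 2, and 3 and 1 without either T/BraKO library. Tbx3 (-1.60), Msx2 (-1.37) and Postn led the lower ones. Tbx3 lost its call without WT replicate 2 or either T/BraKO library, and Msx2 in all 5 fits that gave it an adjusted p.

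BMP genes had 2 higher (9.52%) and 5 lower (23.8%) of 21, against 18.8% and 17.0% of all tested genes (median 0.05, and 3 higher with 2 lower without CdxKO replicate 2). The higher ones were Chrd and the target Id2 (0.95, lost without either WT or either T/BraKO library), and the lower ones included the receptor Bmpr2 (-0.51, adjusted p = 7.12e-07) and the ligands Bmp2 (-0.81) and Bmp4 (-0.72), of which Bmp2 lost its call without either WT or either CdxKO library and Bmp4 in all fits but that without CdxKO replicate 3. Retinoic acid genes had 3 higher and 3 lower of 15 (median 0.09, and 2 to 3 higher with 1 lower with 1 library left out). Stra6, the retinol transporter, had 786, 1213 and 955 normalised counts in series 2 and 284, 218 and 249 in series 3 (-1.96 ± 0.18, adjusted p = 5.15e-26), whereas the receptor Rxrg was higher by 1.63. Eph and ephrin genes, which sort cells by contact, had 8 higher of 18 and none lower (median 0.24, and 5 to 7 higher with 1 library left out). Of these, 7 were Eph receptors and 1 the ligand Efnb2. Epha7 stood at 1325, 1653 and 1294 against 3814, 4383 and 3569 (1.47 ± 0.08, adjusted p = 3.84e-76), Epha5 was higher by 2.00, Epha2 by 1.34, Ephb1 by 1.32 and Epha1 by 0.90, and Efnb2 by 0.42, the last call lost without either WT or either T/BraKO library. Adhesion and epithelial transition genes had 5 higher and 9 lower of 24 (median -0.18, and 1 to 6 higher and 7 to 8 lower with 1 library left out). N-cadherin Cdh2 was higher (0.63, adjusted p = 2.98e-19), as were Twist1 (1.15, call lost without WT replicate 3, at 0.97) and Cdh11 (0.76, call lost without either WT library, at 0.65, and with fractional counts in 6 of 6 libraries). E-cadherin Cdh1 was not called (0.17, adjusted p = 0.427), but without either T/BraKO library it was, at 0.35 (adjusted p = 3.80e-05 and 5.85e-05). The tight junction gene Cldn3 (-1.20) and the polarity gene Crb3 (-1.11) were lower. Collagens, laminins and integrins had 5 higher and 11 lower of 24 (median -0.16, and 2 to 3 higher and 4 to 7 lower with 1 library left out), with the perlecan gene Hspg2 at -0.87 and Col26a1 at 1.02. Hspg2 was not called without WT replicate 2 (adjusted p = 0.0556), nor Col26a1 without T/BraKO replicate 3 (adjusted p = 0.0547). The integrins Itga8 (0.81) and Itgb8 (-0.78) lost their calls without either CdxKO library, and Itgb8 in the other 4 fits as well.

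Myc genes and many genes of protein folding were higher in series 3. Among CDK inhibitors, D cyclins and Myc genes 6 of 18 were higher and 1 lower (median 0.25, and 5 to 6 higher and 0 lower with 1 library left out). Besides Myc these were Mycn, with 972, 623 and 1172 normalised counts against 1945, 1219 and 2420 (1.01 ± 0.09, adjusted p = 5.41e-25), Mycl (1.02), their partner Max (0.44) and the cyclins Ccnd1 (0.37) and Ccnd2 (0.61, not called without either WT or either T/BraKO library). Genes of G1/S, the entry into DNA replication, had 14 higher and none lower of 27 (51.9%), with a median of 0.17 (6 to 9 higher with 1 library left out). Cyclin E1, Ccne1, was at 2391, 2589 and 3128 against 3990, 3805 and 4773 (0.63 ± 0.08, adjusted p = 2.18e-15), and the replication genes Rpa2, Cdc6 and Exo1 were at 0.50, 0.45 and 0.42. Genes of G2/M had 2 higher (7.41%) and 9 lower (33.3%) of 27 (median -0.02, and 3 to 6 lower with 1 library left out), with Mki67 at -0.47, the spindle genes Nusap1 and Hmmr at -0.43 and -0.35, and Birc5 higher at 0.36. In the amino acid and unfolded protein stress list 17 of 29 (58.6%) were higher and 1 lower (median 0.43, and 11 to 21 higher with 1 library left out). The chaperone Hspa5 of the endoplasmic reticulum had 16085, 17309 and 21170 counts against 31209, 30412 and 32361 (0.79 ± 0.07, adjusted p = 1.58e-25), and Calr, Pdia4 and Hsp90b1 of the same compartment were at 0.64, 0.63 and 0.43, with Sdf2l1 at 0.76 and Creld2 at 0.70. The cystine transporter Slc7a11 was higher by 1.47 and the amino acid response factor Atf4 by 0.49, while asparagine synthetase Asns was the lower member (-0.48, adjusted p = 0.0193, not called without either CdxKO library). Heat shock genes had 13 higher and 3 lower of 21 (61.9%, median 0.25, and 7 to 10 higher and 1 to 2 lower with 1 library left out). Hsph1 was at 0.75, the mitochondrial chaperonin Hspd1 at 0.65 and the HSP90 activator Ahsa1 at 0.65, while the small heat shock protein Hspb1 was at -0.83.

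Among metabolic genes, glycolysis had 5 higher (22.7%) and 9 lower (40.9%) of 22 (median -0.11, and 1 to 5 higher and 5 to 10 lower with 1 library left out). The glucose transporter Slc2a3 had 38596, 25191 and 28744 normalised counts in series 2 and 14237, 10840 and 12155 in series 3 (-1.30 ± 0.07, adjusted p = 7.43e-85), the enolase Eno2 was at -1.75, and the aldolase Aldoc at -0.89, lost without either CdxKO library. A second transporter, Slc2a1, was at 18511, 19331 and 10151 against 24665, 28769 and 24016 (0.74, adjusted p = 0.0114), with adjusted p = 0.0574 and 0.0573 without the CdxKO libraries. Hypoxia response genes had 2 higher (8.70%) and 9 lower (39.1%) of 23 (median -0.11, and 3 to 7 lower with 1 library left out), led by the peptide hormone Adm (-1.56), the growth inhibitor Ddit4 (-0.80) and Bnip3 (-0.58, lost without CdxKO replicate 3), with Stc2 higher (0.82). Cholesterol synthesis had 2 higher (8.33%) and 9 lower (37.5%) of 24 (median -0.07, and 7 to 9 lower with 1 library left out), with the enzymes Lss at -0.85, Dhcr7 at -0.54 and Hmgcs1 at -0.47. Fatty acid synthesis had 6 higher and 3 lower of 18 (median 0.06, and 3 to 5 higher and 1 to 3 lower with 1 library left out), with the regulator Srebf1 at 0.36 and the carboxylase Acacb at -0.77. Me1 (0.28) and the elongase Elovl7 (-0.68) were not called without either WT library, Me1 also without either CdxKO and Elovl7 also without either T/BraKO library. The p53 targets had 3 higher and 8 lower of 26 (median -0.07, and 0 higher and 4 to 6 lower with 1 library left out), with the antiproliferative gene Btg2 at -0.83, the DNA polymerase Polk at -0.69, Trp53inp1 at -0.54 and Sesn1 at -0.53, the last not called without either WT library. Ribosomal protein genes, with 1 higher and 6 lower of 32, and replication-dependent histone genes, with 2 lower of 15, had medians of -0.07 and -0.58 and at most 1 call in fits without a library. Rpl3, at -0.23, was not called without either WT library, and Rps18 and Rps4x, both at -0.17, were called in none of these fits. Rpl30 and the histone genes Hist1h1e and Hist1h2ab had fractional counts in 6 of 6 libraries.

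Imprinted genes, which are expressed from 1 parental allele, had 6 higher (16.2%) and 9 lower (24.3%) of 37, against 18.8% and 17.0% of all tested genes. The median was -0.03, with 5 higher and 6 to 7 lower when 1 library was left out. Mest had 1602, 2429 and 2402 normalised counts in series 2 and 4008, 5550 and 5737 in series 3 (1.26 ± 0.07, adjusted p = 3.69e-64), and its overlapping neighbour Copg2, transcribed from the other strand, was at -0.72 (adjusted p = 4.67e-20). Magel2 and Snrpn, neighbours on chromosome 7, were higher by 1.61 and 0.97. H19 and Igf2, which share enhancers, were both lower, and Slc22a18 was at -1.26 (adjusted p = 0.0492), and was called in none of the 4 fits without a library that gave it an adjusted p. H19, a long noncoding RNA, stood at 67.7, 962 and 186 against 8.06, 339 and 34.9 (-2.13 ± 0.28, adjusted p = 2.26e-12), and its level in CdxKO was the highest within each series. Igf2 was at 3967, 4362 and 2776 against 2410, 2108 and 1828 (-0.79, adjusted p = 8.24e-15).

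Several of the largest shifts fell outside these lists. Btbd17 had 32.3, 25.1 and 32.6 normalised counts in series 2 and 497, 565 and 528 in series 3, 17.7-fold higher (4.15 ± 0.24, adjusted p = 1.24e-64). Trh, which encodes thyrotropin-releasing hormone, stood at 290, 350 and 224 against 1970, 2290 and 1850 (2.84 ± 0.12, adjusted p = 9.77e-130). The 3 genotypes were close together in each series for both genes. Col13a1 was at 18.8 to 36.6 against 222 to 353 (3.26 ± 0.32, adjusted p = 1.34e-21), with Cyp2b23 at 3.05 and Sidt1 at 2.69. Nptxr was at 0 in all 3 libraries of series 2 and at 41.6 to 92.0 in series 3, at least 19.9-fold higher against a floor of 3 counts per library, and it overlaps Npcd on the same strand. Moap1, which overlaps Gm20604 and Gm28051, was at 0, 0 and 42.5 against 126, 55.9 and 101, and lost its call without either CdxKO library (highest adjusted p = 0.394). Counts of both were fractional in some libraries, so they are uncertain. On the lower side, Wnt10b, a WNT ligand, had 93.8, 88.7 and 135 counts in series 2 and 9.06, 9.14 and 3.87 in series 3 (-3.84 ± 0.52, adjusted p = 4.29e-12). Gadd45b, a stress-inducible gene, was at 816, 1128 and 1300 against 103, 163 and 69.7 (-3.32 ± 0.43, adjusted p = 5.65e-13). Trim63, a ubiquitin ligase of muscle, was at -2.95, the muscle kinase gene Alpk3 at -2.51 and Hrc, a calcium-binding protein of the muscle reticulum, at -2.48. Tgm1 (-2.90), Bhlhe41 (-2.66) and Zfp536 (-2.48) completed the named lower genes together with Eif3j2. Eif3j2 was at 396, 889 and 835 against 3.02, 108 and 232 (-3.69, adjusted p = 0.00791, not called without either CdxKO library), while its near copy Eif3j1 was higher (0.67), and counts of each were fractional in 5 of 6 libraries, so how reads were split between them is uncertain.

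Series 1, which did not enter the test, lay between the other series for most called genes. On the mean of the 3 genotypes it lay between series 2 and series 3 for 82.6% of the higher and 79.9% of the lower genes, against 52.4% of all tested genes, a share that the size of the gap between the series also sets. It lay beyond series 3 for 13.1% and 13.6%, against 27.9% of all tested genes. For Spry4 series 1 had 1477, 1644 and 1584 normalised counts, in the gap between the series, and for Acta1 it had 236, 377 and 344. For Otx2 it had 114, 95.8 and 145, at the level of series 2, and likewise Trh had 322, 583 and 272 and Utf1 437, 533 and 426. For Tfcp2l1 it had 582, 718 and 832, near series 3, and Esrrb had 99.4, 148 and 121, below it. For Hoxb8 it had 1524, 8.10 and 1912 counts and for Hoxb2 1271, 1127 and 1255, above both other series in each genotype. The place of series 1 so differed between these genes, and it was not tested. The series 1 libraries had 25124344 to 28591410 expected counts, fewer than the 30813836 to 34705361 of series 2 and 3. The ribosomal RNA gene Rn45s took 1.69% to 4.21% of counts in series 1 and 0.343% to 0.992% in the other series. The part of these differences in the place of series 1 was not tested.

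**Figure D5:**
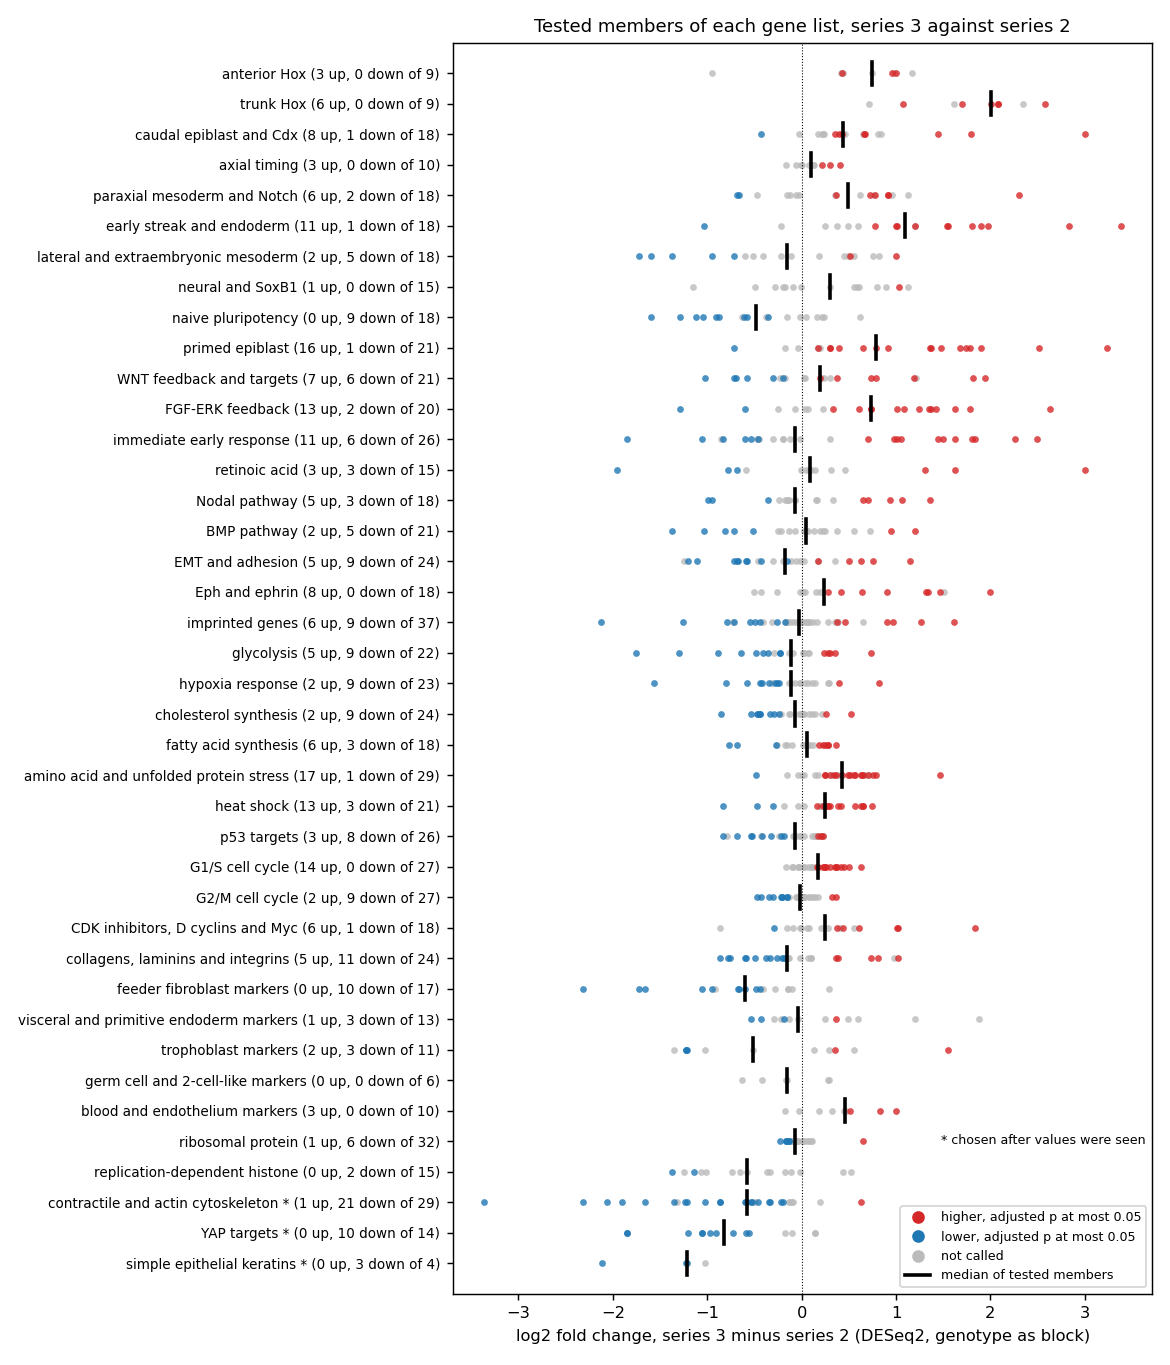
Log2 fold change of every tested member of each gene list, series 3 minus series 2, with called genes in colour and a bar at the list's median. FGF-ERK, primed epiblast, early streak and trunk Hox members lie to the right, with medians of 0.74, 0.79, 1.10 and 2.01, and feeder, contractile and YAP members to the left, with medians of -0.60, -0.58 and -0.82.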

How the data were processed

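Poly(A) RNA was sequenced from 9 libraries as single-end, strand-specific reads. Per the study's methods and the submitters' processing notes, the authors trimmed reads with cutadapt 1.16, aligned them with STAR 2.5.2a to mm10 with RefSeq genes, and deposited RSEM 1.3.0 expected counts and TPM per gene, with replicates not pooled. The deposited TPM values entered no test. RSEM splits reads that match several genes, so fractional counts mark genes whose level is uncertain.

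Expected counts were rounded to whole numbers. Replicate 3 was compared with replicate 2 over 6 libraries in DESeq2 1.42.0 (R 4.3.3), Wald test, with genotype as a block and Benjamini-Hochberg adjustment over all genes tested, called at an adjusted p of at most 0.05. The authors' own comparisons used DESeq2 1.16.1. Normalised counts of all 9 libraries are on the scale of these 6; the place of series 1 was counted with size factors of all 9. Ratios within a genotype used an offset of 0.5 normalised counts and have no test. A floor of 3 counts per library was used where a series was at or under it. The script was tested on simulated data.

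Genes were named by 3 rules: targeted and identity genes, the 10 largest called changes in each direction among genes with the same direction in all genotypes whose normalised counts averaged 50 or more in the higher series, and up to 4 called genes per list. Others were named after their values were seen. The members and lists were chosen with earlier results of these data known, and 3 lists (contractile, YAP targets, keratins) after these values were seen. Alternatives covered the libraries, scaling, filter, block, test (edgeR 4.0.16), thresholds and each library left out. Promoters came from RefSeq (GRCm38.p6) and gene coordinates from GENCODE (GRCm38). Some genes of these lists are not reported here.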

Additional observations from a re-analysis of the deposited data

Results flagged for a closer look

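Hoxb9, a trunk Hox gene, was singled out because its ratio of series 3 to series 2 ran in opposite directions between genotypes. The log2 ratio was 3.12 in WT and 2.29 in T/BraKO, and -1.05 in CdxKO, where the counts behind it were 27.9 and 13.2. Each ratio rests on 1 library in each series, and the difference between genotypes was not tested.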

How the results depend on the processing

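Among the genes followed, no called difference changed sign under any alternative that gave an adjusted p, but the balance of higher and lower members turned in 7 lists. With higher given first, it became 1 and 0 or 3 and 1 for lateral mesoderm without WT replicate 2 or either T/BraKO library, 1 and 2 for neural genes with all 9 libraries, 2 and 3 for WNT without either WT library, 3 and 2 for BMP without CdxKO replicate 2, 5 and 2 for imprinted genes without the genotype block, 1 and 0 for collagens above the fold threshold, and 1 and 0 or 2 and 1 for trophoblast markers without either WT library or CdxKO replicate 2. Over all genes, 2703 higher and 2437 lower, the counts stayed within 1.5 times under all 9 libraries, TMM factors, the filter on low counts, no genotype block, edgeR (3564 and 3255), an adjusted p of at most 0.01 and without Rn45s. With an absolute log2 fold change above 1 they were 269 and 335, so that lower genes became the more numerous. Each fit without 1 library rests on 2 genotypes, and gave 1038 to 1582 higher and 859 to 1255 lower genes. Of the 661 list members tested, 180 were higher and 136 lower. These counts were 61 and 27 with an absolute log2 fold change above 1, 89 lower without the genotype block, and 110 to 139 higher and 68 to 97 lower without 1 library.

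Of 204 called genes followed under these settings, 132 stayed called in all 6 fits without a library, and 6 in every such fit that gave an adjusted p. A further 2 (Foxd3 and Dkk4) had none in any, and 64 lost the call in at least 1. The 204 were named largely for the size of their changes or after their values were seen. Over all 5140 called genes, each fit without a library kept fewer, 1890 to 2727. Lfng and Moap1 lost their calls in the fit of all 9 libraries, and Lama1 with TMM factors and with edgeR. Many more calls depended on the genotype block, and without it 38 of the genes followed lost theirs. Sox3 (0.53, adjusted p = 0.015), Myl7 (-1.27, adjusted p = 0.027) and Hoxa7 (2.67, adjusted p = 0.0157) gained one without the block. The cause was not tested. No paired analysis was possible by replicate number because that number is the contrast itself, and genotype served as the block. Depth was 30813836 to 34705361 expected counts. Genes at or under the floor of 3 counts in all 6 libraries could not be compared. Where only 1 series was at or under it, as for Foxd3 and Nptxr, a least fold is given, and values near the floor are uncertain.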
